A study of Mus musculus with 12 samples.

Results

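Ptgds, which encodes lipocalin-type prostaglandin D synthase, was described in mouse hearts together with 7 other genes of prostaglandin synthesis and response, namely Ptgs1, Ptgs2, Ptges, Ptgis, Ptger3, Ptger4 and Ptgfr. These 8 genes were chosen by their symbols among the 25171 loci of the count table, for a difference in Ptgds between EIIa-tg and EIIa-ctl hearts that earlier work on the same counts had shown. Values of that contrast are therefore given as a description with no test, and tests of the 8 genes were made in the Myh6 hearts and between the controls.

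RNA was sequenced from 12 hearts, with 3 mice in each of 4 groups. All mice carried NOTCH2NLC with 98 GGC repeats at Rosa26, behind a stop sequence that Cre recombinase can remove. EIIa-tg mice (E2a in the labels) also carried a Cre that is active in all tissues, EIIa-ctl mice were littermates without it, and both were collected at postnatal day 30. Myh6-tg and Myh6-ctl mice carried, by their labels, the cardiomyocyte-specific Myh6-creERT2, were injected 3 times from day 60, with tamoxifen at 75 mg per kg or with corn oil, and were collected at day 90. Tamoxifen, activated Cre and the transgene thus cannot be told apart within the Myh6 groups, and age, Cre line and oil cannot be told apart between the controls.

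Prostaglandins are short-range lipid signals made from arachidonic acid, which phospholipases release from membranes. The cyclooxygenases Ptgs1 and Ptgs2 turn it into prostaglandin H2, the first present in most tissues and the second induced by stress, growth factors and inflammation. Terminal synthases then make the active products, prostaglandin D2 by Ptgds, prostaglandin E2 by Ptges and prostacyclin, which relaxes vessels and inhibits platelets, by Ptgis. Ptger3 and Ptger4 are receptors for prostaglandin E2, and Ptgfr is the receptor for prostaglandin F2-alpha.

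By GENCODE M21 on GRCm38, Ptgds (ENSMUSG00000015090) lies on the minus strand of chromosome 2 from 25466709 to 25470046, and Ptgs2 (ENSMUSG00000032487) on the plus strand of chromosome 1 from 150100031 to 150108227. Neither overlaps another annotated gene. Ptgs1 lies at 36230426 to 36252272, Ptges at 30889471 to 30929863 and Ptgis at 167191805 to 167240604 of chromosome 2, where Ptges overlaps the pseudogene Gm13400 on the same strand, so its counts are uncertain. Ptgfr lies at 151796502 to 151837630 and Ptger3 at 157566892 to 157645888 of chromosome 3, and Ptger4 lies at 5206661 to 5244187 of chromosome 15. Ptgs1, Ptgis, Ptger4 and Ptgfr overlap annotated genes on the opposite strand, and whether strand was used in counting is not given in the sources used here.

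RefSeq promoter windows (GRCm38.p6), from 250 bases before to 50 after a gene's start, were found for 7 of the 8 genes, all but Ptgis. They were searched on both strands for 5 short motifs, the AP-1 motif TGACTCA, the C/EBP motif TTGCGCAA, the E-box CACGTG, the CRE core ACGTCA and TATAAA. The 30 bases around the single AP-1 match of Ptgds and the single C/EBP match of Ptgs2 are shown because these genes differed most between EIIa groups among the members measured above 1 CPM, the read count of a gene as a rate of all reads counted, with the match in capitals.
Ptgds, chr2:25469767-25469796, minus strand: ggaggccaagccTGACTCAtaaataggggg
Ptgs2, chr1:150099951-150099980, plus strand: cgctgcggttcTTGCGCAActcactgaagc

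The AP-1 match of Ptgds lay 35 to 29 bases before the RefSeq start. The bases shown for it lie inside the gene as GENCODE places it, since the annotations differ in where Ptgds starts. Of the 32851 windows, 5.2% held the AP-1 motif, and no other member's window did. The C/EBP match of Ptgs2 lay 69 to 62 bases before the start, and 0.183% of windows held that motif. The Ptgs2 window also held the CRE core at bases 13 to 18 after the start and, overlapping it, the E-box at bases 17 to 22, which occurred in 7.51% and 7.15% of windows. TATAAA occurred in 13.6% of windows and in none of the members'. A match describes the letters only.

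The count tables summed to 38343106 to 50969834 for a heart. A detection floor of 3 counts then gives 0.0589 to 0.0782 CPM, a limit that covers counting error only. One protocol in the labels names brain as the source, but Myh6, Tnnt2 and Actc1 stood at 734 CPM or more in each heart and the neural genes Snap25 and Gfap at no more than 0.0993 and 0.662 CPM, although Slc17a7, also a neural gene, ranged from 7.82 to 40.7 CPM. Replicate 1 of every group had 4224 to 7307 counts on Y-linked genes, and the other hearts had at most 2. Esr1, part of which makes creERT2 inducible, stood at 1031 to 2331 CPM in Myh6-ctl and at 1.00 to 2.52 CPM in Myh6-tg hearts, although the labels give both groups the same genotype. The part of this difference in the Myh6 results was not tested. Replicate 1 of Myh6-tg stood apart from replicates 2 and 3 in several genes below, and values without it are given for Ptgds, Ptgis and Ptgs2. In heart tissue of many cell types, fewer cells of a type and less RNA per cell cannot be told apart.

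On the scale of FPKM, fragments scaled to transcript length and sequencing depth, by which genes can be compared, Ptgds was the most abundant of the 8 genes in every heart. In EIIa-ctl hearts it reached 218 ± 30.1 FPKM (SD, n = 3), against 11.45 ± 2.22 for Ptgis, 3.46 ± 0.524 for Ptgs1 and 0.272 ± 0.214 for Ptgs2. Ptger4, Ptgfr, Ptges and Ptger3 averaged 1.86, 0.515, 0.325 and 0.0304 FPKM there. Ptgds thus supplied between 91.7% and 93.2% of the summed FPKM of the 8 genes in EIIa-ctl hearts, with 93.1% to 96.0% for EIIa-tg and 90.9% to 97.0% for Myh6-ctl. In Myh6-tg hearts its share was 92.4% in replicate 1, 66.8% in replicate 2 and 58.9% in replicate 3, where Ptgis supplied 5.63%, 19.1% and 26.3%.

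**Figure D1:**
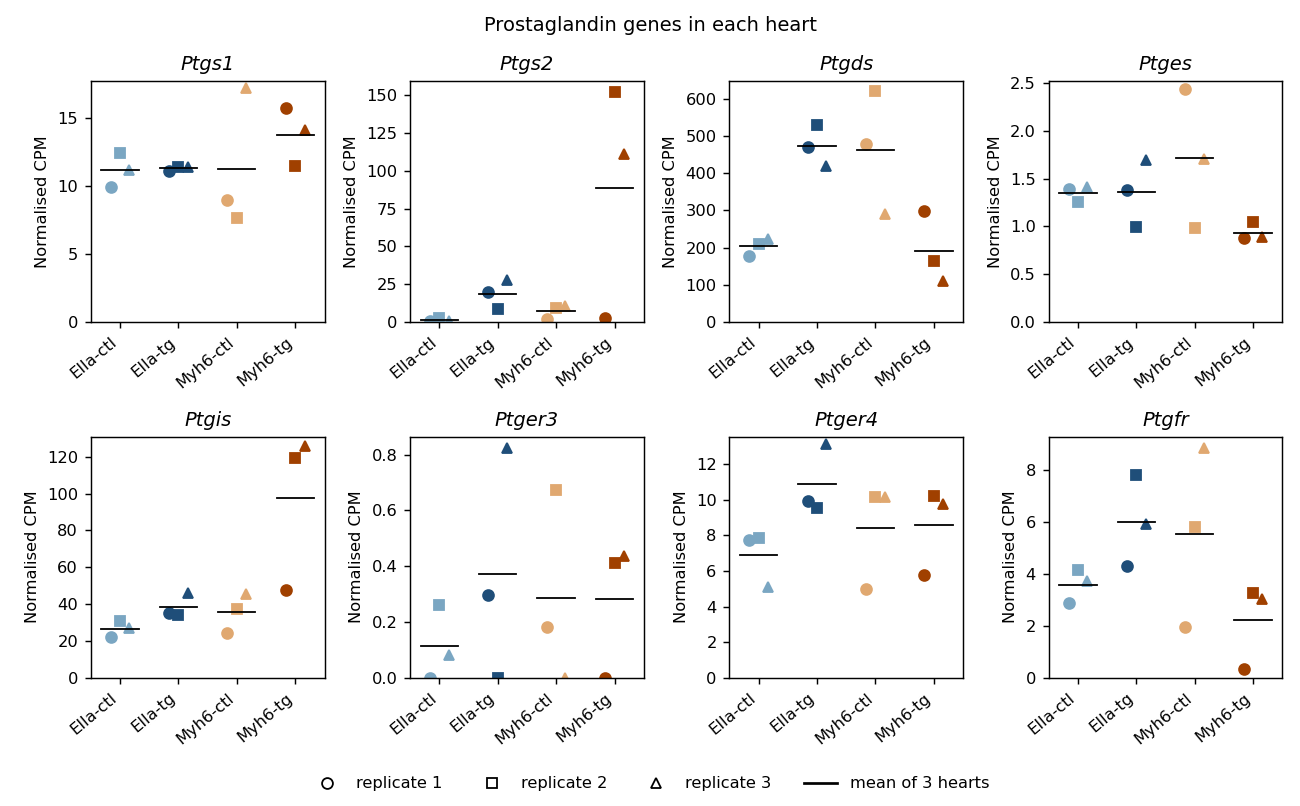
Normalised CPM (counts scaled to the TMM-adjusted total, linear axes from 0) of the 8 genes in each of the 12 hearts, by group, with the mean of 3 hearts as a line and the replicate number as the symbol. Ptgds is high in EIIa-tg and Myh6-ctl, and Ptgs2 reaches 151.8 and 111 CPM in Myh6-tg replicates 2 and 3, with all other hearts at 27.6 CPM or below.

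Within one gene, hearts were compared by normalised CPM, which are counts scaled by the TMM factors of edgeR. For Ptgds the 3 EIIa-ctl hearts had 177, 210.3 and 223 CPM and the 3 EIIa-tg hearts 471, 531 and 419 CPM, in replicate order. Each EIIa-tg heart was thus above each EIIa-ctl heart. Myh6-ctl hearts had 478, 623 and 289.7 CPM and Myh6-tg hearts 299, 163 and 110.0 CPM, where the lowest control fell just below the highest Myh6-tg heart. The group means, from low to high, were 191 ± 97.5 (Myh6-tg), 204 ± 23.6 (EIIa-ctl), 463 ± 167 (Myh6-ctl) and 474 ± 56.3 CPM (EIIa-tg, SD, n = 3 each). Myh6-tg and EIIa-ctl hearts overlapped, as did Myh6-ctl and EIIa-tg hearts, whereas all Myh6-ctl hearts lay above all EIIa-ctl hearts.

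The difference that chose Ptgds was, for EIIa-tg against EIIa-ctl hearts, a log2 fold change of 1.22 ± 0.136 (SE), or 2.32-fold. Of the 8 genes, 5 had all EIIa-tg hearts above all EIIa-ctl hearts, namely Ptgds, Ptgs2, Ptgis, Ptger4 and Ptgfr, where 20.3% of all 14908 genes tested did so. All 8 genes passed the filter on low counts in this comparison. Their median log2 fold change was 0.70, beside 0.016 for all genes tested. Since the genes were chosen with this contrast in view, these values describe them only.

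In the Myh6 hearts the sign was the opposite. Ptgds was 2.43-fold lower in Myh6-tg than in Myh6-ctl hearts, a log2 fold change of -1.28 ± 0.419, which did not pass the threshold used for calls, an adjusted p under 0.05 (edgeR quasi-likelihood test, adjusted p = 0.071). Same-numbered hearts of the Myh6 groups deviated together, so the replicate number was also fitted as a block, and then the log2 fold change was -1.34 ± 0.271 with an adjusted p of 0.0188. This block was chosen from these counts, since the titles give only a replicate number. Replicate 1 is also the heart with Y-linked counts in each group, and the block cannot be separated from that difference. Ptgds was lower in 3 of 3 same-numbered pairs, by 1.60-, 3.81- and 2.63-fold. Without Myh6-tg replicate 1 it was 3.40-fold lower (adjusted p = 0.0123). The difference between the EIIa and Myh6 effects on Ptgds was not tested.

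Ptgis encodes prostacyclin synthase. EIIa-ctl hearts had 22.1, 30.5 and 27.1 CPM and EIIa-tg hearts 35.4, 34.3 and 45.9 CPM. Myh6-ctl hearts had 24.1, 37.5 and 45.2 CPM and Myh6-tg hearts 47.5, 119.6 and 125.9 CPM. Both transgenic groups lay wholly above their own controls, the Myh6-tg replicate 1 only narrowly. The log2 fold change was 0.53 ± 0.157 in the EIIa hearts. In the Myh6 hearts Ptgis rose 2.74-fold, a log2 fold change of 1.46 ± 0.396 (edgeR, adjusted p = 0.0406). It was the only one of the 8 genes called in this comparison, in which 18.3% of 15298 genes were called, and the only one whose groups did not overlap, where 40.2% of genes did not. With the replicate block it was 2.60-fold higher (adjusted p = 0.00687), and with Myh6-tg replicate 1 left out 3.44-fold higher (adjusted p = 0.00366). Leaving out any 1 of the other 5 hearts ended the call, with adjusted p between 0.0765 and 0.137 and log2 fold changes between 1.23 and 1.66.

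Ptges encodes the inducible, membrane-bound prostaglandin E synthase. It was low throughout, with 1.39, 1.25 and 1.41 CPM for EIIa-ctl and 1.38, 0.993 and 1.69 CPM for EIIa-tg. Myh6-ctl hearts had 2.44, 0.984 and 1.71 CPM and Myh6-tg hearts 0.875, 1.04 and 0.890 CPM. Groups overlapped in both models. The log2 fold change was -0.002 ± 0.33 in the EIIa hearts and -0.87 ± 0.474 in the Myh6 hearts (edgeR, adjusted p = 0.238), so a difference was not detectable in the latter at counts of 38 to 108 per heart.

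Of the cyclooxygenases, Ptgs1 stood between 7.66 and 17.3 CPM in all 12 hearts. Its group means were 11.2 ± 1.24 (EIIa-ctl), 11.3 ± 0.197 (EIIa-tg), 11.3 ± 5.21 (Myh6-ctl) and 13.8 ± 2.14 CPM (Myh6-tg). The log2 fold change was 0.01 ± 0.127 in the EIIa hearts and 0.29 ± 0.324 in the Myh6 hearts (edgeR, adjusted p = 0.579).

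Ptgs2 had the widest range of the 8 genes apart from the sparse Ptger3. EIIa-ctl hearts had 0.774, 2.53 and 0.788 CPM, from 34, 97 and 29 counts, and EIIa-tg hearts 19.8, 8.82 and 27.6 CPM. The EIIa groups did not overlap, with a log2 fold change of 3.78 ± 0.555, or 13.7-fold. Myh6-ctl hearts had 1.74, 9.55 and 10.3 CPM and Myh6-tg hearts 2.46, 151.8 and 111 CPM. Replicate 1 of Myh6-tg was thus below Myh6-ctl replicates 2 and 3, while the other Myh6-tg hearts exceeded all 9 hearts of the other groups.

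The log2 fold change of Ptgs2 in the Myh6 hearts was 3.62 ± 1.252, or 12.3-fold, and did not pass the test (edgeR, adjusted p = 0.0825). With the replicate block it was 2.82 ± 0.685, 7.06-fold, and passed (adjusted p = 0.0325), as it did without Myh6-tg replicate 1, at 18.2-fold (adjusted p = 0.00468). Within same-numbered pairs it was higher 1.41-fold in pair 1, 15.9-fold in pair 2 and 10.8-fold in pair 3. Ptgs2, Ptgis, Ptger4 and Ptgfr, 4 of the 8 genes, were lowest in replicate 1 of both Myh6 groups, as were 16% of the 15298 genes tested. Replicate 1 is also the heart with Y-linked counts in each group, and the part of this in the values was not tested.

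On the FPKM scale the ratio of Ptgs2 to Ptgs1 was between 0.0449 and 0.130 in EIIa-ctl hearts and between 0.496 and 1.55 in EIIa-tg hearts. It was between 0.124 and 0.801 in Myh6-ctl hearts. In Myh6-tg hearts it was 0.1002 in replicate 1, 8.51 in replicate 2 and 5.07 in replicate 3. Ptgs2 was therefore the more abundant cyclooxygenase in 2 of 3 hearts of each transgenic group and in no control heart.

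**Figure D2:**
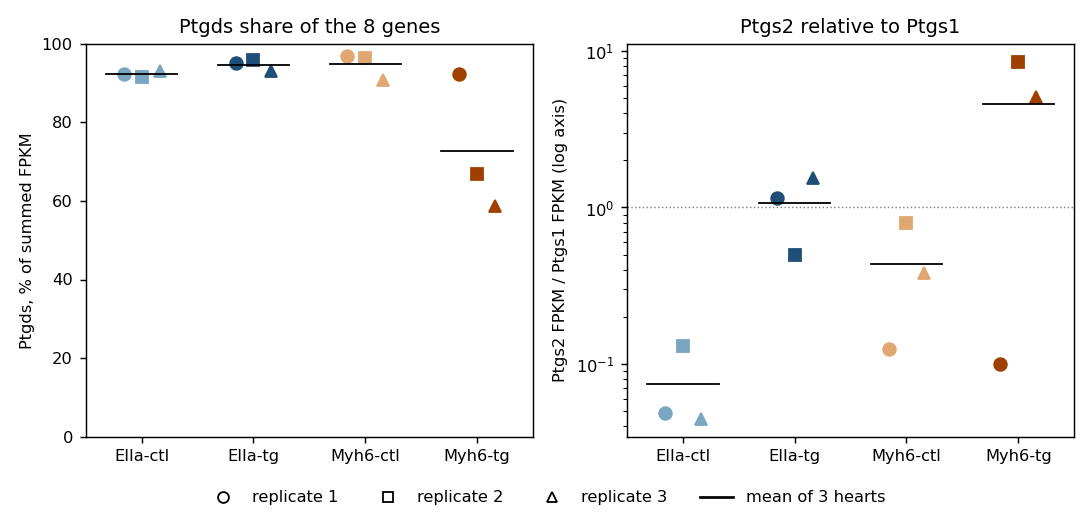
Left, the share of the summed FPKM of the 8 genes that was Ptgds (percent, linear axis from 0); right, the ratio of Ptgs2 FPKM to Ptgs1 FPKM on a log axis with a dotted line at equality, for each heart, with the mean of 3 hearts as a line. Myh6-tg replicates 2 and 3 stand apart in both, with Ptgds shares of 66.8% and 58.9% and ratios of 8.51 and 5.07.

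Among the receptors, Ptger4 had 7.74, 7.87 and 5.08 CPM in the controls of the EIIa model and 9.96, 9.58 and 13.2 CPM in EIIa-tg hearts. These did not overlap, with a log2 fold change of 0.65 ± 0.206. Myh6-ctl hearts ranged from 4.98 to 10.2 CPM and Myh6-tg hearts from 5.79 to 10.2 CPM. The log2 fold change there was 0.03 ± 0.35 (edgeR, adjusted p = 0.968). Its sign changed under 5 of the alternatives tried.

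For Ptgfr the EIIa-ctl hearts had 2.87, 4.17 and 3.72 CPM and the EIIa-tg hearts 4.32, 7.81 and 5.92 CPM. These groups did not overlap, with 4.17 and 4.32 CPM in the nearest hearts, and the log2 fold change was 0.75 ± 0.262. Myh6-ctl hearts had 1.95, 5.80 and 8.88 CPM and Myh6-tg hearts 0.342, 3.28 and 3.03 CPM, which overlapped. Ptgfr was lower in 3 of 3 same-numbered Myh6 pairs, by 5.69-, 1.77- and 2.93-fold. Its log2 fold change of -1.32 ± 0.809 did not pass the test (edgeR, adjusted p = 0.291), and with the replicate block it was -1.57 ± 0.396 and passed (adjusted p = 0.0368). Of the 16 alternatives tried, 2 gave an adjusted p under 0.05 for Ptgfr, the block among them.

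Ptger3 had between 0 and 37 counts per heart and was at 0 in 1 heart of each group. At this depth 0 counts allow up to 0.0782 CPM. The Myh6 groups overlapped, the fitted log2 fold change of 0.02 ± 1.505 took either sign with the alternatives tried (edgeR, adjusted p = 0.994), and a difference was not detectable. It passed the filter on low counts in the EIIa and Myh6 comparisons but not between the controls.

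**Figure D3:**
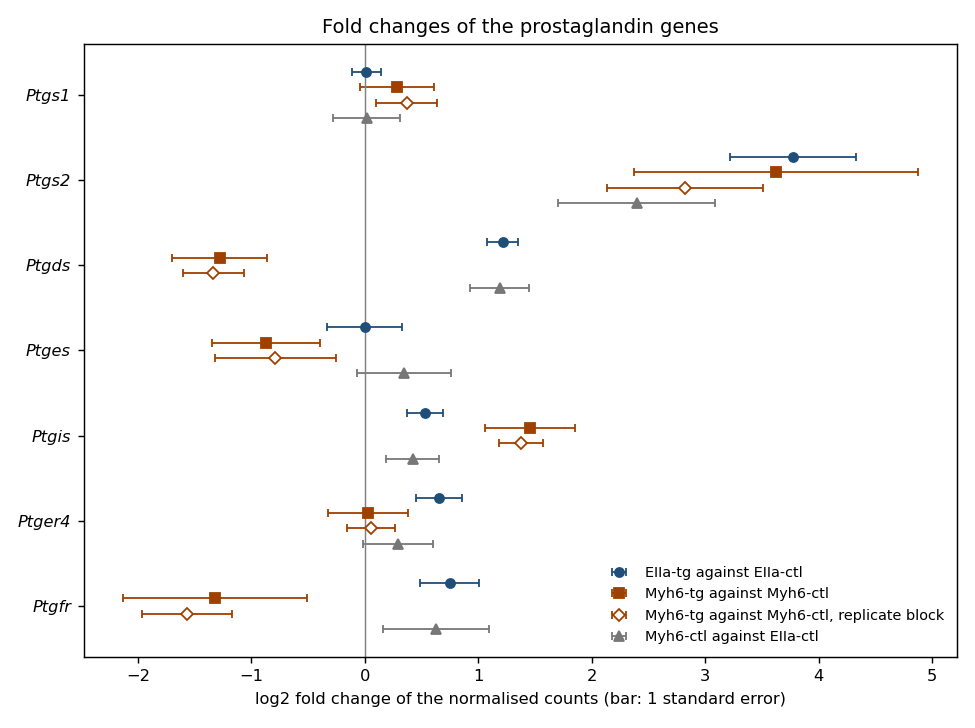
Log2 fold change of the normalised counts (horizontal axis, bar 1 standard error) of 7 of the 8 genes, with Ptger3 left out for its low counts, in EIIa-tg against EIIa-ctl, in Myh6-tg against Myh6-ctl without and with the replicate block, and in Myh6-ctl against EIIa-ctl. Ptgds lies at 1.22, -1.28, -1.34 and 1.19, and Ptgs2 is positive in all 4.

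Counted over the 8 genes, 1 was called in Myh6-tg against Myh6-ctl hearts. With the replicate block, which was chosen from these counts, 4 were called, as were 20.9% of all genes. These 4 were Ptgds, Ptgs2, Ptgis and Ptgfr, Ptgds and Ptgfr being lower and Ptgs2 and Ptgis higher in Myh6-tg. The median log2 fold change of the 8 genes without the block was 0.023, beside 0.032 for all genes tested. In the control comparison, Myh6-ctl against EIIa-ctl, which shares the EIIa-ctl hearts with the EIIa comparison, 0.0334% of 14990 genes were called, 5 genes in all and 1700 at an unadjusted p under 0.05. None of the 6 members tested there besides Ptgds was called by edgeR, with 1 at an unadjusted p under 0.05, and DESeq2 called Ptgs2. Ptgs2 was 5.27-fold higher in Myh6-ctl hearts, a log2 fold change of 2.40 ± 0.694 (edgeR, adjusted p = 0.231, DESeq2 adjusted p = 0.00416). Ptgds, given with no test, was 2.28-fold higher in Myh6-ctl, a log2 fold change of 1.19 ± 0.258.

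Markers of several cell types moved with the groups, in different directions. The summed CPM of 7 cardiomyocyte markers was 37590 to 45600 for EIIa-ctl and 18590 to 33060 for EIIa-tg hearts, and 29290 to 38830 for Myh6-ctl and 8580 to 28750 for Myh6-tg hearts. The 6 macrophage markers summed to 382 to 584 CPM with EIIa-ctl and 819 to 1067 CPM with EIIa-tg hearts, and all 6 rose (edgeR, adjusted p under the threshold), whereas none of the 6 was called by edgeR in the Myh6 comparison (2 at an unadjusted p under 0.05, and 1 called by DESeq2). The 5 markers of activated fibroblasts summed to 95.7 to 174.6 CPM in Myh6-ctl and to 937, 3247 and 3569 CPM in Myh6-tg replicates 1, 2 and 3, and 4 of 5 rose. The atrial list summed to 116 to 356 CPM in EIIa-ctl and 501 to 781 CPM in EIIa-tg hearts. It summed to 153 to 1816 CPM in Myh6-ctl and 4188 to 6524 CPM in Myh6-tg hearts. Of this list, Nppa gave nearly all counts, while Myl7 had 0 counts in 7 of 12 hearts and Bmp10 in 11. Myl7 reached at most 4.26 CPM, in Myh6-tg replicate 3. The titles say heart without naming chambers, and how much atrial tissue was sampled was not tested. The 5 melanocyte markers, cells known to contain Ptgds, summed to 1.53 to 3.32 CPM in the controls of the EIIa model, against 4.02 to 6.93 CPM in EIIa-tg hearts. Only 1 of the 3 tested there rose. Mlana stood at 0.137 to 0.443 CPM in EIIa-ctl and 2.05 to 4.05 CPM in EIIa-tg hearts, while Dct and Pmel overlapped. In the Myh6 model the melanocyte markers summed to 3.28 to 6.19 CPM in controls and 1.32 to 9.55 CPM in Myh6-tg hearts, and none was called. Tyr and Tyrp1 were at 0 counts in all but the last of these groups. Of 7 Schwann cell and neuronal markers the sum moved as Ptgds did, from 16.8 to 22.1 CPM with EIIa-ctl against 27.7 to 31.4 CPM with EIIa-tg, and from 25.6 to 51.1 CPM with Myh6-ctl against 15.99 to 22.3 CPM with Myh6-tg, and Slc17a7 was the 1 gene of that list called in each model (adjusted p = 0.0221 and 0.0147). In EIIa-tg hearts the sums of 6 fibroblast markers (1704 to 2535 CPM against 1042 to 1328 in controls, 2 of 6 risen) and 4 endocardial markers (42.2 to 57.8 against 27.5 to 38.2 CPM, 1 of 4 risen) were also above all controls. So were 5 platelet markers (24.7 to 28.4 against 14.5 to 19.9 CPM, 1 of 4 tested risen). In the Myh6 model these sums overlapped. Fibroblast markers summed to 1475 to 3373 CPM in Myh6-tg against 1413 to 1799 CPM in Myh6-ctl hearts (2 of 6 risen). Endocardial markers summed to 28.4 to 42.1 against 36.6 to 87.8 CPM, and platelet markers to 12.9 to 50.3 against 21.6 to 28.6 CPM. The 5 endothelial markers summed to 1196 to 1422 CPM in EIIa-tg and 1203 to 1556 CPM in EIIa-ctl hearts, and 3 fell. In the Myh6 model their sums overlapped and none was called. Sums of 6 smooth muscle and pericyte markers overlapped in the EIIa model, with none called. All Myh6-tg hearts, at 946 to 1040 CPM, were below all Myh6-ctl hearts, at 1066 to 1372 CPM, and 1 of these 6 markers fell. Red blood cell markers were lower in both models, at 198 to 1270 CPM in EIIa-tg against 1543 to 2608 CPM in EIIa-ctl hearts and at 1866 to 3450 CPM in Myh6-tg against 5220 to 8148 CPM in Myh6-ctl hearts, where 1 and 3 of 5 fell. Mitochondrially encoded genes took 15.5% to 18.6% of counts in Myh6-tg and 28.5% to 38.3% in the other hearts. The part of these differences in the members' values was not tested.

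The genes around the 8 were read from a list of 40 other genes of arachidonic acid metabolism, of which 31 passed the filter in each comparison. In EIIa-tg against EIIa-ctl hearts 2 rose, 2 fell and 27 were not called, and 17.0% of all genes were called there. In Myh6-tg against Myh6-ctl hearts 1 rose, 7 fell and 23 were not called, beside the 18.3% of all genes. Their median log2 fold change was 0.15 in the EIIa and -0.23 in the Myh6 hearts. None of the 31 was called between the controls by edgeR, where 7 had an unadjusted p under 0.05 and DESeq2 called 2. Of the 4 EIIa calls, 0 were left when all 12 hearts were fitted together, a fit in which 1.43% of all genes were called. Also, 0 were left without EIIa-ctl replicate 1 or 3 or EIIa-tg replicate 1 or 3, fits whose share of all genes is not given here.

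The other terminal synthases numbered 7 and all were tested. Hpgds, the second prostaglandin D synthase, is found in mast cells, macrophages and other blood-derived cells, and is named here after its values were seen. EIIa-ctl hearts had 2.89, 3.08 and 2.28 CPM and EIIa-tg hearts 4.19, 4.35 and 5.86 CPM, without overlap. It rose 1.74-fold in EIIa-tg hearts (edgeR, adjusted p = 0.047), and all 6 macrophage markers rose in the same hearts. Of 5 mast cell markers Cma1 and Tpsb2 rose there (adjusted p = 0.0246 and 0.0251), Kit fell (adjusted p = 0.0166), and Cpa3 and Mcpt4 were not called, with Cpa3 at 0.592 to 1.17 CPM in controls and 1.504 to 2.01 CPM in EIIa-tg hearts. The part of these markers in the rise of Hpgds was not tested. In the Myh6 hearts its log2 fold change was 0.38 ± 0.505 (adjusted p = 0.641).

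Akr1b3, an aldose reductase that also makes prostaglandin F2-alpha, was called in both models. EIIa-ctl hearts had 216, 172 and 205 CPM and EIIa-tg hearts 113, 152.0 and 112 CPM. Myh6-ctl hearts had 186, 212 and 129 CPM and Myh6-tg hearts 82.4, 74.7 and 54.5 CPM. Each transgenic group lay below its controls. Akr1b3 fell 1.57-fold in EIIa-tg (edgeR, adjusted p = 0.0281) and 2.49-fold in Myh6-tg hearts (adjusted p = 0.0141). Cbr1, a carbonyl reductase that acts on prostaglandins, was the other synthase called in the Myh6 hearts, and was 1.93-fold lower (adjusted p = 0.0249).

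Of the 6 genes of transport and breakdown, Ptgr2, which encodes an enzyme that reduces 15-keto prostaglandins, was also called in both models. Its values were 207, 179 and 199.9 CPM for EIIa-ctl, 114, 142 and 94.8 CPM for EIIa-tg, 198, 148 and 146.5 CPM for Myh6-ctl, and 93.0, 45.0 and 46.8 CPM for Myh6-tg hearts. Groups did not overlap in either model. Ptgr2 fell 1.67-fold in EIIa-tg (edgeR, adjusted p = 0.0227) and 2.67-fold in Myh6-tg hearts (adjusted p = 0.0214). Slco2a1, the prostaglandin transporter that brings prostaglandins into cells, was the gene of the list that rose in the Myh6 hearts. Controls had 6.83, 4.30 and 10.3 CPM and Myh6-tg hearts 23.4, 19.0 and 19.8 CPM, and it rose 2.90-fold (adjusted p = 0.0166).

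Of the 11 phospholipases, 6 passed the filter, none was called by edgeR in the EIIa hearts (1 at an unadjusted p under 0.05, and 2 called by DESeq2) and 3 fell in the Myh6 hearts, namely Pla2g5, Pla2g2d and Pla2g4e. Pla2g5, a secreted phospholipase A2 of the heart, had the largest fall of the list. Controls of the Myh6 model had 19.9, 21.5 and 15.2 CPM and Myh6-tg hearts 1.75, 0.326 and 0.946 CPM, a fall of 18.7-fold (edgeR, adjusted p = 0.00445). The EIIa controls had 23.9, 23.8 and 27.2 CPM and the EIIa-tg hearts 6.78, 23.3 and 10.7 CPM, with a log2 fold change of -0.87 ± 0.381 that did not pass (adjusted p = 0.144). Pla2g4a, the cytosolic phospholipase that supplies cyclooxygenases, was not called in either model.

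None of the 5 other genes of the receptor list that passed the filter was called by edgeR or DESeq2 in any comparison, and by edgeR 0 had an unadjusted p under 0.05. One of these, Ptgfrn, is listed with the receptors but does not itself encode a prostanoid receptor. Ptgdr and Ptgdr2, the receptors for prostaglandin D2, did not pass the filter, with no more than 0.285 CPM in any heart. Of the 7 leukotriene and lipoxygenase genes tested, Alox5ap, which presents arachidonic acid to 5-lipoxygenase, rose 2.08-fold in EIIa-tg hearts (edgeR, adjusted p = 0.0166), the larger of the 2 rises called in the list there. Controls had 9.81, 12.9 and 9.24 CPM and EIIa-tg hearts 22.3, 19.1 and 25.6 CPM, with the macrophage markers higher in the same hearts. Alox5, the 5-lipoxygenase itself, fell 2.28-fold in Myh6-tg hearts (adjusted p = 0.0164), and its EIIa log2 fold change of -0.70 ± 0.23 did not pass (adjusted p = 0.0677).

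**Figure D4:**
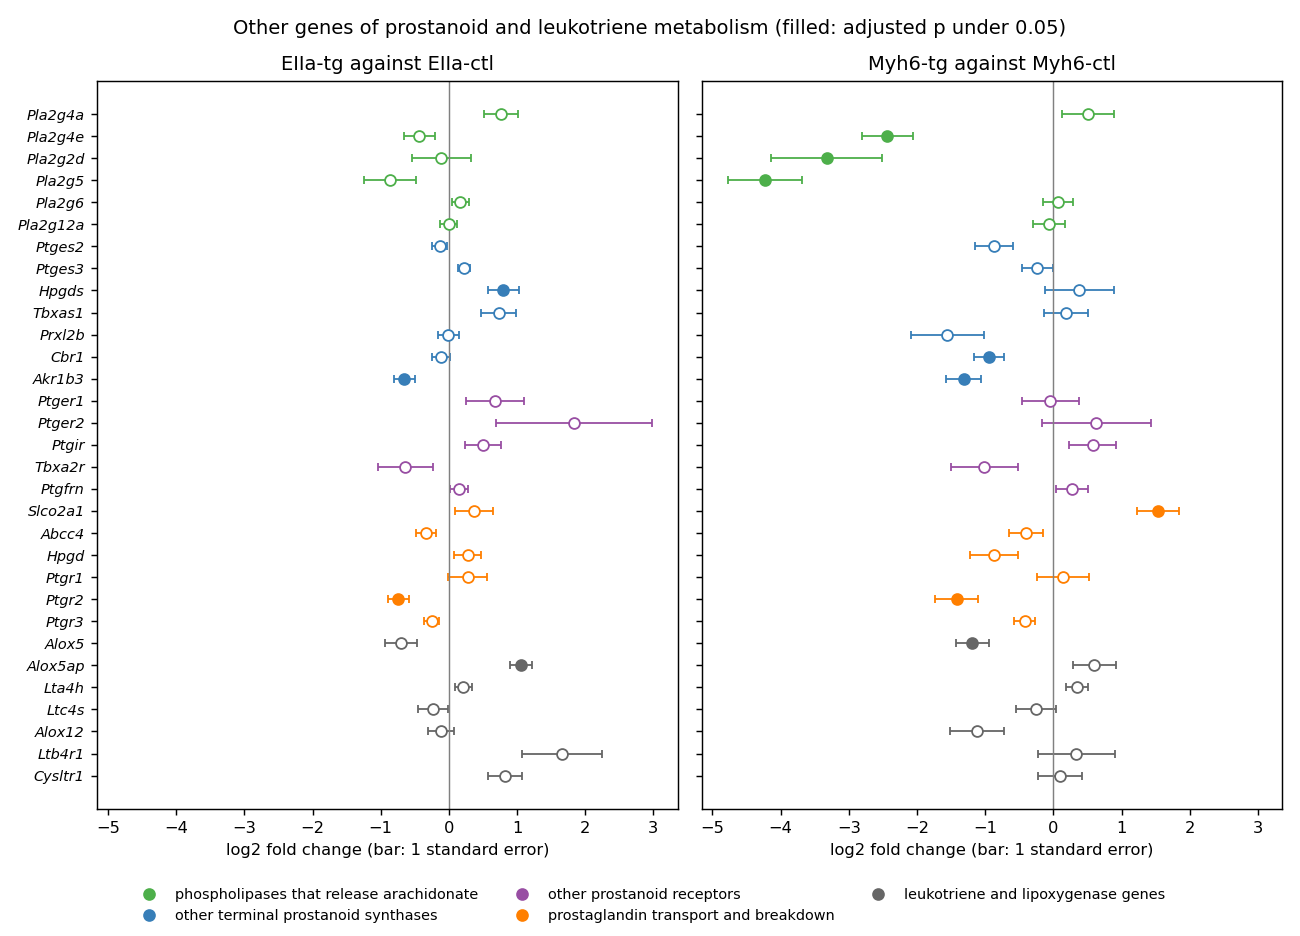
Log2 fold change (bar 1 standard error) of the 31 other genes of prostanoid and leukotriene metabolism that passed the filter, in EIIa-tg against EIIa-ctl (left) and Myh6-tg against Myh6-ctl hearts (right), coloured by role and filled where the adjusted p was under 0.05. On the left 4 are filled and on the right 8, of which 7 lie below 0.

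The 6 genes whose log2 CPM over the 12 hearts was most like that of Ptgds by Pearson's r, among 10224 annotated genes with a mean of at least 5 CPM, were Tmed4 (r = 0.902), Gstm1 (r = 0.882), Uchl3 (r = 0.867), Dus2 (r = 0.865), Kxd1 (r = 0.833) and Ormdl1 (r = 0.832). By Spearman's rho, 2 of them, Gstm1 and Tmed4, were again among the first 6. Gstm1, a glutathione transferase, averaged 218 CPM for EIIa-ctl, 300.3 for EIIa-tg, 274 for Myh6-ctl and 205 for Myh6-tg hearts, the same order of groups as for Ptgds over a narrower range. Tmed4, a protein of secretory vesicles, averaged 77.9, 91.8, 89.9 and 69.6 CPM in the same groups. Of the other members, only Ptgs1, Ptgs2, Ptgis and Ptger4 reached that mean, and none was among the 6. Their r with Ptgds was -0.44 for Ptgs1, -0.18 for Ptgs2, -0.50 for Ptgis and 0.07 for Ptger4. Ptges, Ptger3 and Ptgfr had lower means and were not ranked. The group means of Ptgfr had the same order as those of Ptgds, with neighbouring groups overlapping. The 12 hearts share groups, models and depth, and these correlations are a description.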

How the data were processed

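RNA of 12 mouse hearts was analysed. According to the methods of the study, libraries were made with a NEBNext Ultra kit, read as pairs on a NovaSeq and mapped to GRCm38 with Hisat2, while the submitters' processing notes list GRCm39, mm10, HISAT2 2.0.4, StringTie 2.2.1 and DESeq2. The counting program, annotation release and strand setting are not given in the sources used here. Counts, whole numbers of reads per gene, were deposited by the authors as they were, with no scaling. FPKM values, which the authors scaled to transcript length and mapped fragments, were deposited in a second table. Both hold 25171 loci, 3135 of them named NewGene by the authors, and 22022 identifiers were found in GENCODE M21.

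Hearts were grouped by their titles, since the genotype entries of EIIa-tg replicates 2 and 3 differ from that of replicate 1. The members and lists were chosen with earlier results of these data known. All 8 members are named. Other pathway genes are named if called in at least 2 of the 3 comparisons or if theirs was the largest called rise or fall of a comparison (mean CPM of 1 or more), and the 6 genes most like Ptgds by Pearson's r. Named outside this rule are Hpgds, Cbr1, Alox5, Pla2g2d, Pla2g4e, Pla2g4a, Ptgdr, Ptgdr2, Ptgfrn and the genes of the last paragraph below.

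Each comparison used its 6 hearts in edgeR 4.0.16 (R 4.3.3), where low counts were removed by filterByExpr, TMM factors were set and the quasi-likelihood test (glmQLFTest) was run, with Benjamini-Hochberg adjustment over all genes tested. A gene was called at an adjusted p under 0.05. For the genes most like Ptgds, log2 CPM had a prior count of 2. Same-numbered Myh6 hearts deviated together, with correlations of their deviations from the group means of 0.285, 0.184 and 0.173, all over 0.1, so the numbers were taken to pair them. The titles state no pairing, and replicate 1 is also the heart with Y-linked counts, so what the block stands for cannot be told. In the EIIa hearts these correlations were 0.0602, -0.0704 and -0.05, and between the controls 0.124, 0.0604 and -0.0312. These were not all over 0.1, so there the numbers were not taken to pair the hearts. Alternatives were DESeq2 1.42.0, RLE factors, other filters, all 12 hearts, the replicate block, removal of mt- genes, the thresholds of the study (adjusted p under 0.01, log2 fold change of at least 1), limma 3.58.1 on log2 of FPKM with pseudocounts of 1 and 0.1, and leaving out hearts. The scripts were tested on simulated data. Figures were drawn with matplotlib 3.10.9. The transgene was not analysed here.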

Additional observations from a re-analysis of the deposited data

How the results depend on the processing

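For the members, the direction of Ptgds, Ptgs2, Ptgis, Ptges and Ptgfr in the Myh6 comparison was the same under all 16 alternatives. Their count called there, 1, was 3 with DESeq2 and with all 12 hearts, 4 with the replicate block and without replicate 1 of both groups, and 0 at the thresholds of the study and with limma on log2(FPKM + 1). Leaving out 1 heart gave 0 to 3, the 3 coming without Myh6-tg replicate 1 and 0 without any other. Of the members tested between the controls, 0 were called, and 1 with DESeq2. The other pathway genes called in the EIIa comparison, 4, were 8 with DESeq2, 2 with limma on log2(FPKM + 0.1), and 0 with all 12 hearts, with the replicate block, without replicate 1 of both groups, with limma on log2(FPKM + 1) and at the thresholds of the study. Leaving out 1 heart gave 0 to 8. Without EIIa-ctl replicate 1 or 3, or EIIa-tg replicate 1 or 3, it was 0. In the Myh6 comparison the count, 8, was 13 with all 12 hearts and 2 at the thresholds of the study, which 608 of 15298 genes passed. It was 12 with the replicate block and 11 with DESeq2, while the share of all genes called went from 18.3% to 31.7% with all 12 hearts, 20.9% with the block and 21.8% with DESeq2, and leaving out 1 heart gave 2 to 11, the lowest without Myh6-ctl replicate 1. Causes were not tested, beyond the fewer hearts of such fits.

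Signs changed only in log2 fold changes of at most 0.35 that were not called. In the Myh6 comparison Ptger3 was 0.019 and became -0.017 with RLE factors, -0.018 without mt- genes, -0.040 with DESeq2 and -0.045 with the replicate block, and ranged from -0.59 to 1.65 when 1 heart was left out. Ptger4 was 0.027 and became -0.007 without mt- genes and -0.029 without replicate 1 of both groups, and ranged from -0.24 to 0.24 when 1 heart was left out. Between the controls Ptgs1 was 0.017 and became -0.070 with the replicate block, and -0.026 and -0.058 with limma on log2 FPKM at pseudocounts of 1 and 0.1, and ranged from -0.43 to 0.24 when 1 heart was left out. Ptges there was 0.35 and ranged from -0.002 to 0.62 in the same way. On the FPKM scale with a pseudocount of 0.1 the median of all genes moved to 0.33 in the Myh6 and 0.19 in the EIIa comparison. Relative to it Ptgds lay at -1.24 and 1.23. In the EIIa comparison Ptgds ranged from 1.11 to 1.42 and Ptgs2 from 1.97 to 4.57 over the alternatives. The replicate block left 1 of all 14908 genes called in the EIIa comparison, where the numbers were not taken to pair the hearts.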

Other observations

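Of the 31 other pathway genes tested, 12 lay below all Myh6-ctl hearts in all Myh6-tg hearts, where 19.6% of all genes did so, and 5 of these were not called by edgeR. They are named after their values were seen. Prxl2b, which encodes a prostaglandin F synthase, stood at 58.8, 69.3 and 49.6 CPM in Myh6-ctl and at 40.2, 9.68 and 10.8 CPM in Myh6-tg hearts (edgeR log2 fold change -1.55, adjusted p = 0.0797, and 0.0287 with the replicate block). Ptges2, a second prostaglandin E synthase, averaged 35.1 and 19.2 CPM (log2 fold change -0.87, adjusted p = 0.0636, and 0.0268 with the block). Alox12, a lipoxygenase, averaged 5.0 and 2.31 CPM (log2 fold change -1.12, adjusted p = 0.0878, and 0.0473 with the block). Hpgd, the dehydrogenase that inactivates prostaglandins, averaged 14.35 and 7.83 CPM (log2 fold change -0.87, adjusted p = 0.12, and 0.0411 with the block). Ptgr3, a prostaglandin reductase, averaged 55.3 and 41.2 CPM (log2 fold change -0.42, adjusted p = 0.103, and 0.096 with the block). In the EIIa comparison the adjusted p of Prxl2b, Ptges2, Alox12, Hpgd and Ptgr3 was 0.976, 0.428, 0.705, 0.358 and 0.146. Whether the models differ in them was not tested.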
